A study of Mus musculus with 8 samples.

Results

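Foxf2, Foxq1, Foxc1 and Foxp1 are 4 forkhead transcription factor genes known to be active in the endothelium of the brain, and their transcripts were followed in all 8 libraries made from the sorted brain endothelium of mouse embryos. They were taken by name, with earlier results of these data known, from 24421 gene rows of the count table, and all 4 were among the 13540 genes with enough counts to be tested. Libraries came from embryos of the C57Bl6 strain at E14.5 (the embryonic day), 4 heterozygous for a mutation of Flvcr2 and 4 knockout for it. The mutant allele makes cells express GFP, so both groups carry it and no wild-type library enters the comparison. Sorting kept cells with both GFP and CD31, which endothelial cells carry on their surface, and 2000 to 5000 of them gave the RNA of each library. Nothing in the labels ties a library to an embryo of its own, so the p-values below measure the spread between these libraries, which may be partly technical.

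Forkhead proteins bind DNA through a winged-helix domain, in which 1 helix lies in the major groove and reads the bases. In brain endothelium Foxf2 and Foxq1 belong to a group of factors that set brain vessels apart from vessels of other organs, a state that also depends on Wnt and beta-catenin signalling. Foxc1 acts in vessel growth and in the meninges and mural cells around brain vessels, and Foxp1 is a repressor found in endothelium, neurons and blood cells. Flvcr2 encodes a choline transporter of brain endothelium whose loss malforms brain vessels during embryonic growth.

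The stretch coding for this helix is shown for the 3 genes of chromosome 13, because it is where their reads are hardest to tell apart. Capitals mark the bases that differ from Foxf2, on the coding strand of build GRCm38. The 33 bases lie at chr13:31626509-31626541 in Foxf2, chr13:31559391-31559423 in Foxq1 and chr13:31807571-31807603 in Foxc1, each within 1 exon on the plus strand.
Foxf2: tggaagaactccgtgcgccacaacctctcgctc
Foxq1: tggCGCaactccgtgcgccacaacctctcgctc
Foxc1: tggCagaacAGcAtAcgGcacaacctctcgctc
Foxq1 differs from Foxf2 at 3 of these bases and Foxc1 at 6. The longest run of identical bases between 2 of the 4 genes was 32, between Foxf2 and Foxq1, which is shorter than the reads of 50 nucleotides. Of the runs shared with their nearest paralogs, that of Foxf2 and Foxf1 was 41 bases long, and that of Foxc1 and Foxc2 was 53, so a read that falls wholly within the latter could come from either gene.
Foxf2 and Foxf1: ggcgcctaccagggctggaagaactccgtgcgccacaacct
Foxc1 and Foxc2: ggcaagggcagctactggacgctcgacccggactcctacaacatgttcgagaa
The sources used here do not state how such reads were counted, so the value of Foxc1 may hold a few reads of Foxc2 and the reverse.

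Foxq1, Foxf2 and Foxc1 lie on chromosome 13 in that order, all on the plus strand. RefSeq places Foxq1 at chr13:31558170-31560976, Foxf2 at chr13:31625816-31631406 and Foxc1 at chr13:31806646-31810635. A gap of 64.8 kb separates Foxq1 from Foxf2, and 175 kb separate Foxf2 from Foxc1. Foxp1 lies apart on chromosome 6, at chr6:98925342-99522746, with 31 annotated transcripts, the longest coding one in 19 exons. In comparison, the annotation gives Foxq1 and Foxc1 1 exon and Foxf2 2 exons.

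The libraries held between 9.11 and 35.9 M counts, and no pair of libraries within a group matched within sampling noise (a chi-square of 28.9 or more for each degree of freedom). Flvcr2, listed under its older symbol Mfsd7c, averaged 427 ± 124 CPM (counts per M, with library sizes scaled by TMM) in heterozygotes against 301 ± 73.6 CPM in knockouts (SD, n = 4). The ranges overlap, and the sources used here do not say which part of the gene is mutated, so this level does not check the labels. Endothelial markers were present in every library, with the 12 listed genes summing to 4893 to 8650 CPM across heterozygotes and 7988 to 11516 CPM across knockouts. Transcripts of other cell types were also present, and most listed markers of each type had a log2 fold change below 0. Beside the counts of markers that fell, 4.02% of all tested genes fell, at the threshold given below. Marker sums did not overlap between genotypes for neurons and erythroid cells, and overlapped for the other types. By the mean of log2 CPM, which counts each marker alike, pericyte, radial glia and erythroid markers did not overlap. Fibroblast, neuron and microglia markers did. The 12 neuron markers summed to 285 to 1832 CPM across heterozygotes and 91.0 to 273 CPM across knockouts, and 7 of 12 fell. Of 10 radial glia markers 4 fell, with sums of 1331 to 1470 CPM across heterozygotes and 1320 to 1569 CPM across knockouts. These sums follow the most abundant markers. The mean log2 CPM of the 10 was 4.94 ± 0.66 across heterozygotes and 3.15 ± 0.95 across knockouts (SD, n = 4). Of 13 pericyte markers 2 fell, with sums of 481 to 642 CPM and 54.4 to 675 CPM, and of 10 fibroblast markers 1 fell, with sums of 170 to 423 CPM and 54.0 to 602 CPM. None of 8 microglia markers was called (362 to 1039 CPM and 95.5 to 634 CPM), and of the 4 erythroid markers tested of 6, 2 fell (227 to 611 CPM and 17.6 to 51.8 CPM).

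All 4 forkhead genes were well measured. In heterozygous libraries Foxq1 stood at the 98.0th percentile of the tested genes by mean CPM, Foxf2 at the 95.3rd, Foxp1 at the 88.3rd and Foxc1 at the 78.8th. Counts per library were 3233 to 14695 for Foxq1, 1996 to 11744 for Foxf2, 694 to 3498 for Foxp1 and 570 to 2097 for Foxc1, so none of them is near the limit of detection in any library.

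Between genotypes, Foxp1 fell 1.74-fold in knockout libraries, whereas Foxf2, Foxq1 and Foxc1 did not pass the test in either direction. Foxp1 was therefore the 1 gene of the 4 that was called in edgeR's quasi-likelihood test, at an adjusted p under 0.05. Over all 13540 tested genes, 9.55% were called, 5.53% higher and 4.02% lower in knockout libraries. The share of calls that were increases was 57.9%, against 42.6% with library size alone and 12% when scaled on endothelial markers, where the median log2 fold change over all genes was -0.15 and -0.50. With 4 genes, 1 call is not a share that can be set apart from this background. A lower level in bulk libraries can come from fewer cells that express the gene or from less RNA in each cell, and these cannot be told apart here.

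**Figure D1:**
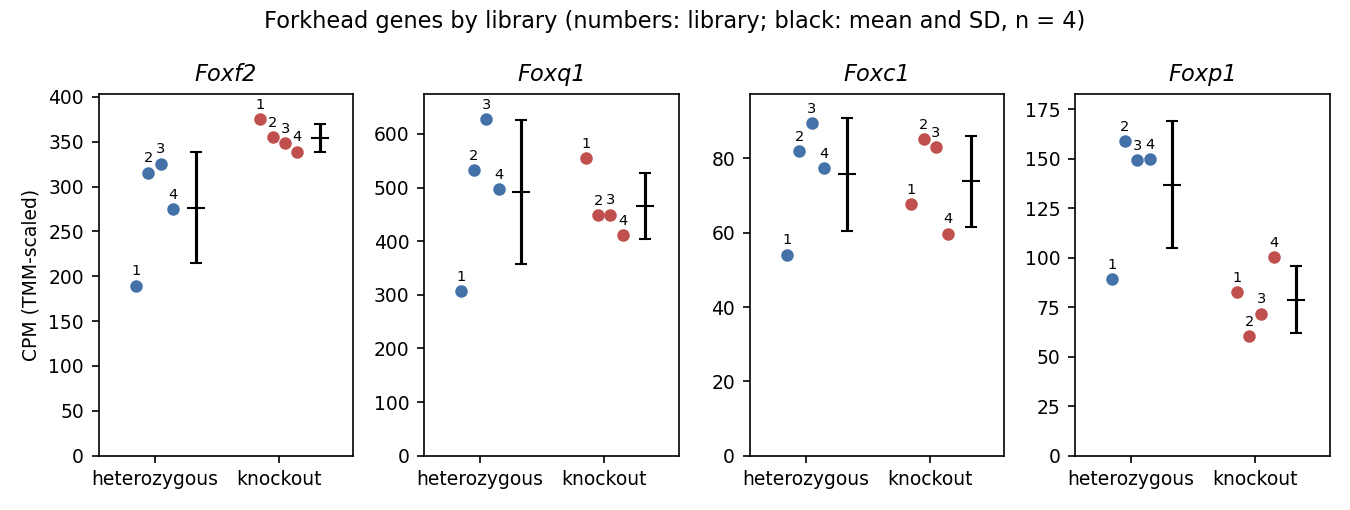
Transcript level of each gene in CPM with TMM-scaled library sizes (vertical axis) in the 4 heterozygous and 4 knockout libraries (points, numbered), with the mean and SD in black. Foxp1 has 3 heterozygous libraries above every knockout library and heterozygous library 1 within the knockout range, and all 4 knockout libraries of Foxf2 lie above the heterozygous ones.

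Foxp1, the repressor of the group, had 89.3, 159, 149 and 150 CPM in heterozygous libraries 1 to 4. In knockout libraries 1 to 4 it had 82.6, 60.4, 71.6 and 100.3 CPM. Heterozygous library 1 lies below knockout library 4, so the groups overlap, while the other 3 heterozygous libraries lie close together and above all knockout libraries. The mean was 137 ± 32.0 CPM (SD, n = 4) for heterozygotes and 78.7 ± 17.0 CPM for knockouts. In edgeR's fit the log2 fold change was -0.80 ± 0.21 (SE, 95% interval -1.27 to -0.32, adjusted p = 0.0422), which placed Foxp1 at rank 1136 of the tested genes by p. The call is close to the threshold, and leaving out 1 library ended it in 6 of 8 cases. The adjusted p was 0.105 without heterozygous library 2, 0.0977 without 3 and 0.0859 without 4, and 0.0952, 0.0816 and 0.0804 without knockout libraries 1, 2 and 3, with log2 fold changes of -0.68 to -0.80 in these 6 fits.

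Neurons and blood cells also express Foxp1. As given above, 7 of 12 neuron and 2 of 4 erythroid markers fell in knockout libraries, beside 4.02% of all tested genes. None of 8 microglia markers was called, though 7 were below 0, with a median log2 fold change of -1.21. Heterozygous library 1 had the highest neuron marker sum of all libraries, 1832 CPM, and the lowest Foxp1 of its group. The part of each cell type in the level of Foxp1 was not tested. With a score of the other cell types as a covariate, an alternative chosen after seeing the data, the log2 fold change of Foxp1 was -1.37 ± 0.47 (SE) with an adjusted p of 0.465 in edgeR, and the call was lost. That fit called 0 genes, while 1142 genes had an unadjusted p under 0.05. The score ran from 4.32 to 5.39 across heterozygotes and from 2.08 to 3.60 across knockouts, so it does not overlap between genotypes and the 2 cannot be told apart in this model. When the library levels were scaled on the 12 endothelial markers instead, the log2 fold change of Foxp1 was -1.25 (adjusted p = 0.00547, edgeR), beside the median of -0.50 over all genes under that scaling.

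Foxf2, needed for a tight barrier and expressed in pericytes as well as endothelium, had 189.5, 315, 325 and 275 CPM in heterozygous libraries 1 to 4. Its knockout libraries 1 to 4 had 375, 355, 348 and 339 CPM. Every knockout library lies above every heterozygous one, a separation also seen in 17.6% of all tested genes in either direction and in 9.70% in this direction. The mean was 276 ± 61.8 CPM for heterozygotes and 354 ± 15.4 CPM for knockouts (SD, n = 4). The log2 fold change was 0.36 ± 0.17 (SE) with a 95% interval of -0.02 to 0.74 and an adjusted p of 0.215 in edgeR, so the difference was not called. Scaled on endothelial markers, the log2 fold change was -0.055 ± 0.19, and with the other-cell score as a covariate it was -0.0018 ± 0.37 (SE). Both values are small beside their errors, so the rise of Foxf2 depends on the setting and no reversal was shown. Of the 12 endothelial markers themselves, 2 rose in knockout libraries, beside 5.53% of all tested genes, and 10 had a log2 fold change above 0. Their median log2 fold change was 0.53, beside -0.03 over all tested genes. Pericyte marker sums overlapped between genotypes, as given above, while all 13 pericyte markers had a log2 fold change below 0. Their mean log2 CPM was 4.06 ± 0.14 across heterozygotes and 1.98 ± 1.32 across knockouts (SD, n = 4), without overlap. The part of pericytes in the level of Foxf2 was not tested.

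Foxq1, the neighbour of Foxf2 and the most abundant of the 4 by CPM, had 307, 532, 627 and 497 CPM in heterozygous libraries 1 to 4. The knockout libraries had 555, 448, 449 and 412 CPM. The knockout values all fall within the heterozygous range. The means were 491 ± 134 CPM and 466 ± 61.9 CPM (SD, n = 4), and the log2 fold change was -0.08 ± 0.20 (SE, 95% interval -0.53 to 0.38, edgeR adjusted p = 0.853). The interval leaves room for a fall of 0.53 or a rise of 0.38 on the log2 scale, so equality was not shown.

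Foxc1 had 54.1, 81.9, 89.5 and 77.4 CPM in heterozygous libraries and 67.6, 85.2, 83.0 and 59.7 CPM in knockout libraries. All 4 knockout values again fall within the heterozygous range. Means of 75.7 ± 15.2 CPM and 73.9 ± 12.3 CPM (SD, n = 4) gave a log2 fold change of -0.04 ± 0.19 (SE, 95% interval -0.45 to 0.38, edgeR adjusted p = 0.925). For both Foxq1 and Foxc1 the value of this fit is small beside its error, and the sign changed when single libraries were left out. Scaled on endothelial markers, the log2 fold changes were -0.48 ± 0.19 for Foxq1 and -0.43 ± 0.24 for Foxc1 (SE). Neither was called, and the median over all genes under that scaling was -0.50.

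Heterozygous library 1 was the lowest of its group for each of the 4 genes. Its level was 0.621 of the mean of the other 3 heterozygous libraries for Foxf2, 0.556 for Foxq1, 0.653 for Foxc1 and 0.585 for Foxp1. The endothelial marker sum in this library was 0.627 of the mean of the same 3 libraries, and the neuron marker sum was 3.70 times their mean. Without it, the heterozygous mean was 305 ± 26.8 CPM for Foxf2, 552 ± 67.3 CPM for Foxq1, 82.9 ± 6.12 CPM for Foxc1 and 153 ± 5.38 CPM for Foxp1 (SD, n = 3). The SD of all 4 heterozygous libraries thus comes in large part from this library. Across the 4 heterozygous libraries the SD was 22.4% of the mean for Foxf2, 27.4% for Foxq1, 20.1% for Foxc1 and 23.4% for Foxp1. In knockout libraries it was 4.34%, 13.3%, 16.6% and 21.6% in the same order, so Foxf2 was the steadiest of the 4 among knockout libraries, a difference in spread that was not tested.

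**Figure D2:**
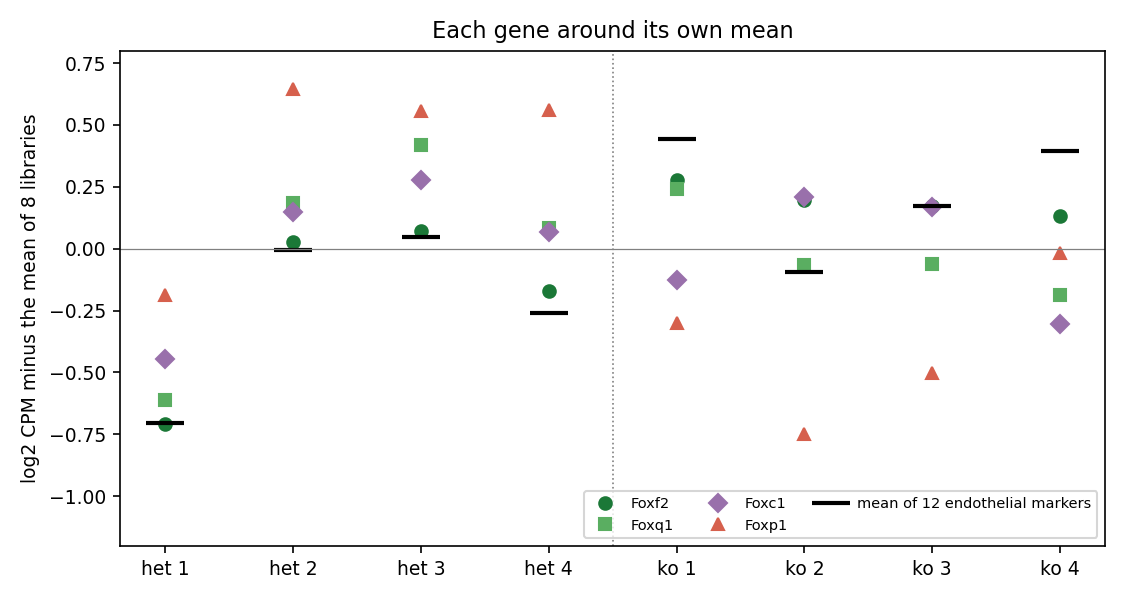
Level of each gene in each library as log2 CPM minus the gene's own mean over 8 libraries (vertical axis), with the mean of the 12 endothelial markers as black bars. In heterozygous library 1 all 4 genes and the endothelial markers are below 0, and in knockout libraries Foxp1 is below and Foxf2 above 0 throughout.

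Ratios between the genes do not depend on the library scaling, and they tell whether 2 genes differ in their difference between genotypes. All 6 pairs were compared by an exact two-sided permutation test over 70 arrangements of the 8 libraries, whose smallest possible p is 0.0286. The log2 ratio of Foxf2 to Foxp1 was 1.09, 0.99, 1.12 and 0.87 across heterozygotes and 2.18, 2.55, 2.28 and 1.76 across knockouts. The groups are well apart, with means of 1.02 ± 0.11 and 2.19 ± 0.33 (SD, n = 4), a 2.26-fold difference in the ratio. Its exact permutation p of 0.0286 became 0.0571 after adjustment over the 6 pairs, which is above the threshold.

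The ratios of Foxf2 to its neighbours on chromosome 13 did not overlap between genotypes either. All 3 ratios without overlap share Foxf2, so they are not separate observations. The CPM of Foxf2 itself did not overlap, as for 17.6% of all tested genes in either direction. Its log2 ratio to Foxq1 was -0.70, -0.76, -0.95 and -0.86 across heterozygotes and -0.56, -0.34, -0.37 and -0.28 across knockouts, a difference of 0.43. Its log2 ratio to Foxc1 was 1.81, 1.94, 1.86 and 1.83 across heterozygotes and 2.47, 2.06, 2.07 and 2.50 across knockouts, a difference of 0.42. Both had an exact permutation p of 0.0286, adjusted to 0.0571, so neither passed over the 6 pairs. The log2 ratio of Foxq1 to Foxc1 differed by -0.01, with means of 2.67 ± 0.13 and 2.66 ± 0.30 (exact permutation p = 0.914). The log2 ratios of Foxq1 and Foxc1 to Foxp1 were 0.75 and 0.76 higher in knockout libraries, and both overlapped between groups (adjusted exact permutation p = 0.0857 and 0.103). No ratio between 2 of the 4 genes was therefore shown to differ, at a sample size that cannot give an adjusted p below 0.0571 with these 3 lowest values.

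**Figure D3:**
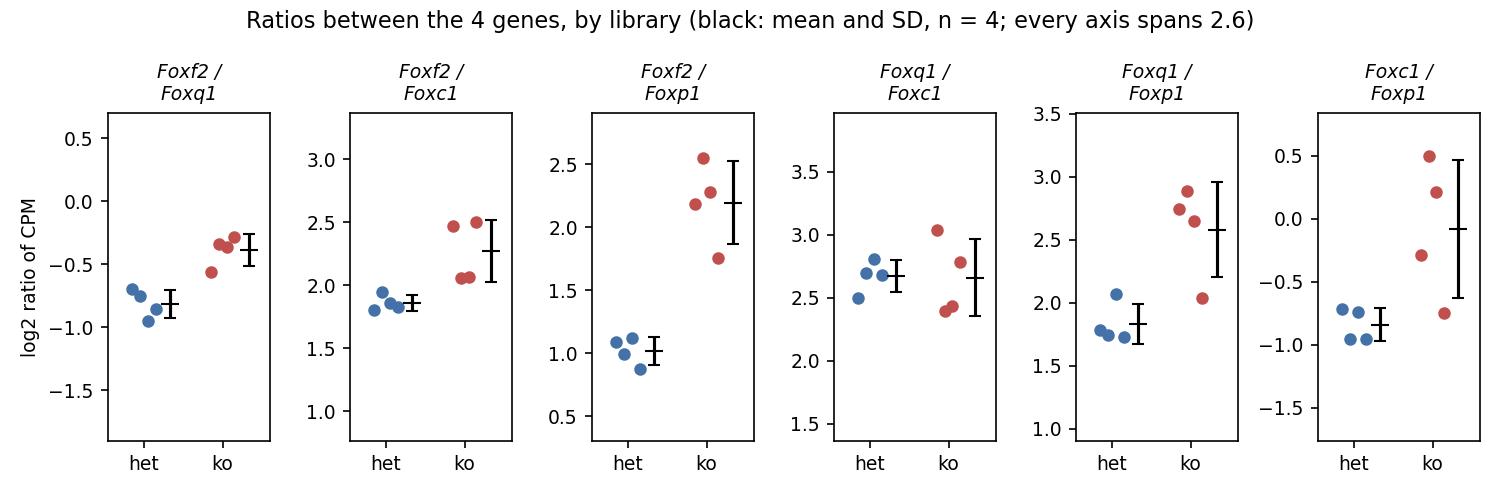
Log2 ratio of CPM for each pair of the 4 genes (vertical axes, all spanning the same range) in each heterozygous and knockout library (points), with mean and SD in black. The 3 ratios with Foxf2 as numerator do not overlap between genotypes, and the ratio of Foxq1 to Foxc1 is nearly level.

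Levels of different genes were compared per kilobase of exon. Per kilobase of the union of annotated exons, heterozygous libraries held 117 ± 26.2 CPM of Foxf2, 101 ± 27.8 of Foxq1, 13.0 ± 2.61 of Foxc1 and 9.95 ± 2.33 of Foxp1 (SD, n = 4). In knockout libraries the levels per kilobase were 150 ± 6.50, 96.2 ± 12.8, 12.6 ± 2.10 and 5.73 ± 1.23. Foxf2 and Foxq1 thus stood well above Foxc1 and Foxp1 per kilobase in both genotypes. The order within each pair depends on the transcript length used. With the RefSeq length of Foxq1 its level was 175 ± 47.9 CPM per kilobase in heterozygous and 166 ± 22.0 in knockout libraries, above that of Foxf2 but with overlapping ranges. With the longest coding transcript, Foxp1 had 19.1 ± 4.46 CPM per kilobase in heterozygous libraries, above Foxc1, and 11.0 ± 2.37 in knockout libraries, below it, again with overlapping ranges.

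Of the genes most like each member over the 8 libraries, measured as the mean absolute difference of log2 CPM after each gene was centred on its own mean, those reported for Foxf2 were Gng12 at 0.0665 and Pdgfb, the growth factor that recruits pericytes, at 0.0814. Foxq1 was nearest to Slc7a5, the large neutral amino acid transporter of the barrier, at 0.0799, then Zdhhc24 at 0.107 and Tdrp at 0.115. For Foxc1 they were Tm6sf1 at 0.0877, Med12 at 0.0973 and Gas2l3 at 0.102. Foxp1 was nearest to Tmem198b at 0.109, the ETS factor gene Fli1 at 0.110 and Adgre5 at 0.116. The median over 10078 candidate genes was 0.358 for Foxf2, 0.380 for Foxq1, 0.359 for Foxc1 and 0.539 for Foxp1. All 3 genes nearest to Foxp1 fell in knockout libraries, with log2 fold changes of -0.73 for Tmem198b, -0.72 for Fli1 and -0.90 for Adgre5, which their choice by likeness largely fixes. Among the members the same distance was 0.168 between Foxq1 and Foxc1, 0.210 between Foxf2 and Foxc1 and 0.213 between Foxf2 and Foxq1, against 0.417 to 0.587 for Foxp1 with each of the others.

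Few genes lie within 500 kb of the 4. Gmds, which encodes an enzyme of GDP-fucose synthesis and lies 8.95 kb from Foxc1, rose from 47.5 ± 8.89 to 73.7 ± 9.13 CPM, with a log2 fold change of 0.63 ± 0.17 (SE, edgeR adjusted p = 0.0466). The lncRNA gene 1700018A04Rik, between Foxq1 and Foxf2, had 6.89 ± 2.56 and 5.62 ± 0.87 CPM and was not called (edgeR adjusted p = 0.680), and 4930401O12Rik was listed at 0 in every library. Next to Foxp1, Eif4e3 had 20.8 ± 1.36 and 14.8 ± 1.41 CPM (log2 fold change -0.50, adjusted p = 0.146), and Gpr27 had 3.67 ± 2.75 and 1.70 ± 0.79 CPM (adjusted p = 0.356), both in edgeR. Prok2 had 10 counts in all and was not tested. The called gene of the chromosome 13 stretch thus went up next to Foxc1, which was not called, and no tested neighbour of Foxp1 was called.

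Other transcription factors known from brain endothelium were not called either. Of a list of 6, which counts Foxf2 and Foxq1, 0 rose and 0 fell, beside 9.55% called over all tested genes. With 6 genes, 0 calls cannot be set apart from this background. The median log2 fold change was -0.24, against -0.03 over all tested genes. The list had 1 gene whose groups did not overlap, Foxf2, beside 17.6% of all tested genes. Lef1, the factor that carries beta-catenin to DNA, had 213 ± 35.1 and 265 ± 40.0 CPM (log2 fold change 0.32 ± 0.16, edgeR adjusted p = 0.257). Foxl2, a further forkhead gene, had a log2 fold change of -0.41 ± 0.25, the nuclear receptor gene Ppard -0.71 ± 0.37 and the zinc finger gene Zfp551 -1.32 ± 1.16 (SE). The 95% interval of each of these 4 log2 fold changes includes 0.

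**Figure D4:**
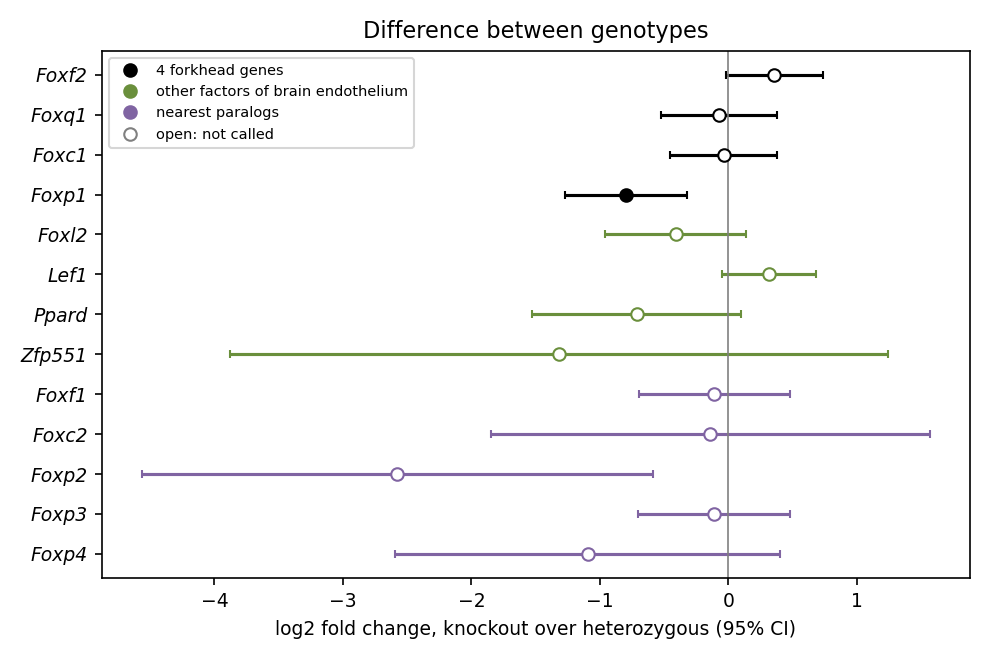
Log2 fold change of knockout over heterozygous libraries with its 95% interval (horizontal axis) for the 4 forkhead genes (black), the other listed factors of brain endothelium (green) and the nearest paralogs of the 4 (purple), filled where called. Foxp1 is the 1 filled point, at -0.80, and the intervals of the low-expressed Zfp551, Foxc2, Foxp2 and Foxp4 are wide.

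The nearest paralogs were less abundant, and 0 of 5 were called, beside 9.55% over all tested genes. Their median log2 fold change was -0.14. Foxf1, the paralog of Foxf2, had 29.8 ± 6.69 and 27.6 ± 9.38 CPM (log2 fold change -0.11), and Foxc2, that of Foxc1, had 4.15 ± 3.90 and 3.75 ± 3.39 CPM (-0.14). Of the genes closest to Foxp1, Foxp3 had 15.8 ± 3.38 and 14.7 ± 3.33 CPM (-0.11). Foxp2 had 12.4 ± 4.94 and 2.06 ± 2.72 CPM, with a log2 fold change of -2.58 ± 0.90 (SE) that was not called in edgeR (adjusted p = 0.103), and Foxp4 had 3.62 ± 3.12 and 1.68 ± 0.54 CPM (-1.10). All 5 fitted values were below 0, beside a median of -0.03 over all genes, and the difference between Foxp1 and its paralogs was not tested. Foxo1, a forkhead gene of endothelium in general, stood at 185 ± 30.7 and 187 ± 17.1 CPM, with a log2 fold change of 0.01 ± 0.15 (SE).

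Genes listed as responding to forkhead factors in endothelial cells gave 1 rise and 0 falls among 7 tested of 8. Over all tested genes 9.55% were called, so 1 call among 7 cannot be set apart from this background. The median log2 fold change was -0.32, with 2 genes above 0 and 5 below, beside a median of -0.03 over all genes. Itgb3, an integrin subunit of sprouting vessels, had 5.60, 10.5, 1.20 and 5.94 CPM across heterozygotes and 60.6, 5.49, 68.3 and 41.9 CPM across knockouts. Knockout library 2 lay within the heterozygous range while the other 3 were several times higher. The log2 fold change of Itgb3 was 2.95 ± 0.74 (SE, edgeR adjusted p = 0.0327).

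The Wnt pathway acts upstream of the brain endothelial state to which Foxf2 and Foxq1 belong. Of 18 listed Wnt pathway genes 1 rose and 4 fell, with a median log2 fold change of -0.39, beside 5.53% higher, 4.02% lower and a median of -0.03 over all tested genes. Nkd1, a feedback inhibitor, fell by 1.25 on the log2 scale (edgeR adjusted p = 0.00441), the Wnt target and receptor gene Tnfrsf19 fell by 0.86 (0.0102) and the TCF factor gene Tcf7l1 fell by 1.34 (0.0107). Fzd4, the receptor for Norrin and Wnt ligands, rose by 1.22 (0.0278). Barrier genes gave 1 rise and 6 falls among 17, with a median of -0.44. The taurine transporter gene Slc6a6 fell by 2.01, the glutamine transporter gene Slc38a5 fell by 2.64 and the tight junction gene Ocln fell by 1.65 on the log2 scale, and Plvap, a protein of leaky vessels, rose by 1.39. Transcription factors of endothelium in general gave 2 rises and 4 falls among 20, with a median of -0.12. Bcl6b and Ets2 rose by 1.01 and 1.11, and Klf2 and Sox18 fell by 1.35 and 0.80.

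**Figure D5:**
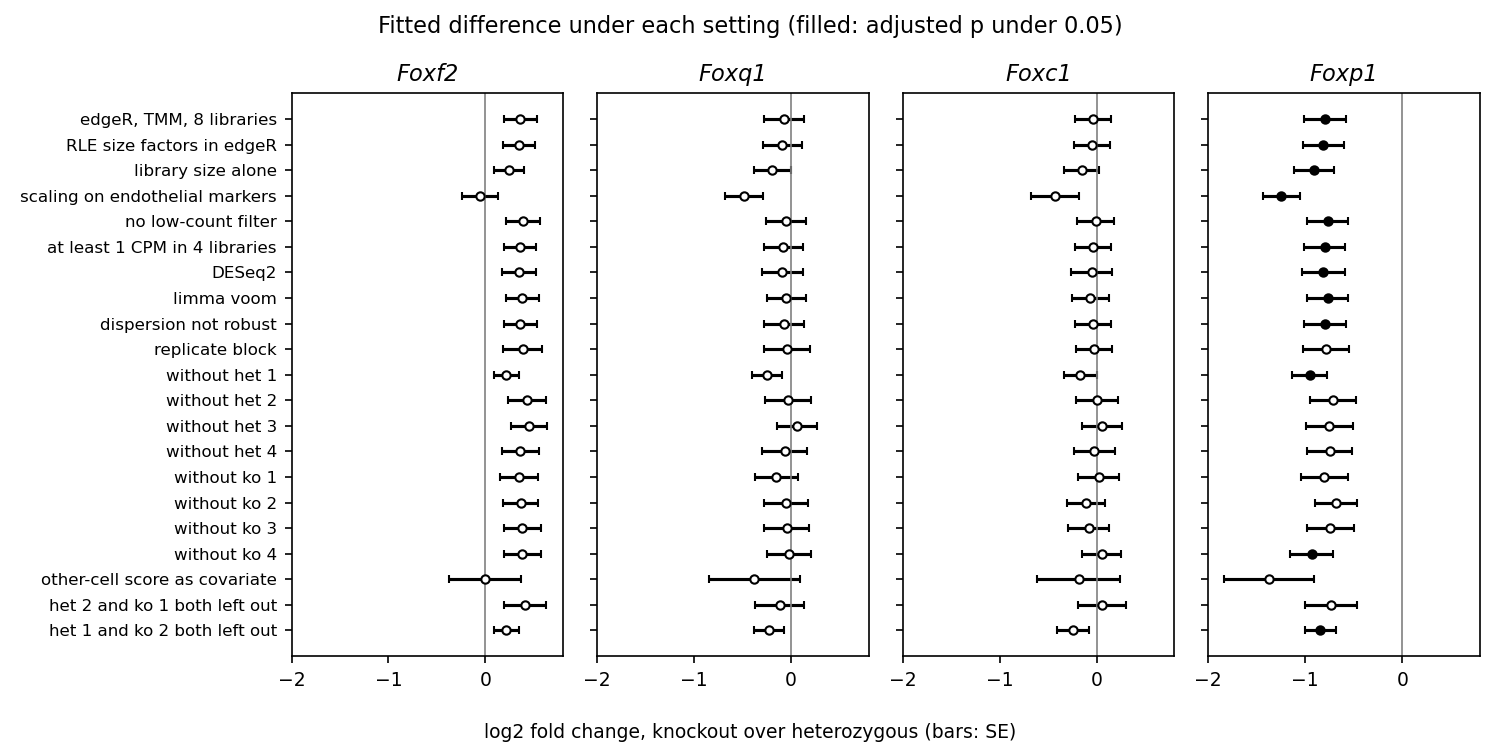
Log2 fold change of the 4 genes with its SE (horizontal axis) in the fit of 8 libraries and under 20 alternative settings (rows), filled where the adjusted p was under 0.05. Foxp1 is below 0 in every row and filled in 11 of the 20 alternatives, and no row of the other 3 genes is filled.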

How the data were processed

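The authors deposited raw counts per gene symbol for 8 libraries, made with SMART-Seq v4 and Nextera XT, per the labels. The submitters' processing notes name TopHat2 0.7, Cufflinks 2.2.1 and mm10; how reads were counted, with which annotation and strand setting, is not stated there. Genes were kept by filterByExpr (minimum count 10, minimum total 15), scaled by TMM and tested with edgeR 4.0.16 (quasi-likelihood, robust, no covariate) in R 4.3.3. P-values were adjusted by Benjamini-Hochberg over 13540 genes, with a threshold of 0.05. CPM use TMM-scaled library sizes, and log2 ratios a prior count of 2. The 4 genes and all lists were chosen with earlier results of these data known. From lists with calls, up to 4 called genes with the smallest p are named, otherwise the 2 most abundant. Uncalled genes of the brain endothelial factor and paralog lists are also given, which goes beyond this rule. So do Foxo1 and Xist, named after their values were seen. Also named are up to 3 genes most like each of the 4 (at least 5 CPM on average) and neighbours within 500 kb. Some genes that these rules pick are not reported here. Positions and exon lengths come from RefSeq and GENCODE, build GRCm38. The test was checked on simulated counts. Alternatives used other scalings, filters, DESeq2 1.42.0, limma voom (limma 3.58.1), a dispersion that is not robust, a block for the replicate number and left-out libraries. A covariate for other cell types and 2 further pairs of left-out libraries were chosen after seeing the data.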

Additional observations from a re-analysis of the deposited data

Results flagged for a closer look

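Foxp1 in heterozygous library 1, at 89.3 CPM, lay far below the other 3 heterozygous libraries, which had 149 to 159 CPM. The gap was 0.863 of the group's range, above Dixon's 95% critical value for 4 samples. The log2 ratio of Foxq1 to Foxp1 in heterozygous library 3, at 2.07, lay far above the other 3, at 1.73 to 1.78 (0.849 of the range). These are 2 of 20 groups checked, and chance flags about 1 in 20.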

How the results depend on the processing

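Over 20 alternatives Foxp1 stayed below 0 in each, called in 11, and Foxf2, Foxq1 and Foxc1 were called in none. Leaving out 1 library gave Foxp1 log2 fold changes of -0.95 to -0.68, Foxf2 0.21 to 0.45, Foxq1 -0.25 to 0.066 and Foxc1 -0.17 to 0.054, and 579 to 1347 called genes against 1293. Foxq1 was above 0 without heterozygous library 3 (0.066), and Foxc1 without heterozygous libraries 2 (0.0024) and 3 (0.054) and knockout libraries 1 (0.020) and 4 (0.053). The log2 ratio of Foxq1 to Foxc1 ranged from -0.14 to 0.079 and was above 0 without heterozygous library 3 (0.034) and knockout libraries 2 (0.079) and 3 (0.065); each other ratio kept its sign. Heterozygous library 2 and knockout library 1 had 0 and 1 counts of Xist, a transcript of female cells, against 229 or more elsewhere. Without these 2 libraries, Foxp1 was -0.73 (edgeR adjusted p = 0.191), Foxc1 was 0.054 and 300 genes were called. Without heterozygous library 1 and knockout library 2, Foxp1 was -0.85 (edgeR adjusted p = 0.0191) and 842 genes were called. With the other-cell score Foxf2 was -0.0018, Foxp1 -1.37 and 0 genes were called in edgeR (1142 at an unadjusted p under 0.05). Scaling on endothelial markers gave Foxf2 -0.055, Foxq1 -0.48 and Foxc1 -0.43, DESeq2 called 2229 genes, and the cause was not tested.

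Same-numbered libraries did not deviate together (correlations of 0.06, 0.21, -0.05 and 0.02). With a block for the replicate number, Foxp1 was -0.79 (adjusted p = 0.0861, edgeR), 868 genes were called, and no ratio passed an exact sign-flip permutation test, whose smallest p is 0.125.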
